A study of Rattus norvegicus with 12 samples.

Results

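The miRNAs described here are miR-143, miR-145, miR-126-3p and miR-126-5p, known as miRNAs of the vessel wall. They were taken by assay name from a qPCR card of rat medial entorhinal cortex (MEC), where they made up 4 of 375 miRNA assays, and all 4 were among the 222 assays that could be tested. The study asked which miRNAs mark stellate neurons, the layer II cells that project to the hippocampus. Long Evans pups received the fluorescent tracer DiO in the dentate gyrus of both hemispheres on postnatal day 2 (P2), and the dissociated MEC was sorted on P4 or P5 into DiO-positive cells (stellate, 5 samples) and DiO-negative cells (non-stellate, 5 samples). Both sorted groups therefore shared the injection, the enzymatic dissociation, the viability gate and the RNAqueous Micro extraction. The 2 tissue samples were MEC dissected at P23, neither dissociated nor sorted, kept in RNAlater and extracted with another kit, which is mirVana in the labels and a Norgen kit in the study's methods. The stellate group was defined by uptake of the dye alone, and the non-stellate group held every other live cell in the gate, neuronal or not. The description field gave non-stellate 3 and 5 as labelled, against their title, source and fluorescence, so comparisons are also given without them.

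MiR-143 and miR-145 are made from neighbouring hairpins in the long noncoding RNA Carmn and are known from smooth muscle cells and pericytes, where they favour the contractile state. MiR-126 lies in an intron of Egfl7, a gene of endothelial cells, and both arms of its hairpin are found in endothelium, where the 3p arm is known to sustain VEGF signalling. In brain tissue these miRNAs are usually read as signs of blood vessels.

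The mature RNAs that the 4 assays are named for are given because the report turns on 2 pairs that share a transcript. They were read from RefSeq on the rat build GRCr8, and capitals mark the seed, bases 2 to 8, which pairs with target mRNAs.
miR-143: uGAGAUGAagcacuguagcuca
miR-145: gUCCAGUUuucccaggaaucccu
miR-126-3p: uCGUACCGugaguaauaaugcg
miR-126-5p: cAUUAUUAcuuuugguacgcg

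MiR-143 (chr18:57371373-57371394, minus strand) and miR-145 (chr18:57370033-57370055, minus strand) both lie within Carmn, and their hairpins are 1278 bases apart. MiR-126-5p (chr3:29813182-29813202, plus strand) and miR-126-3p (chr3:29813219-29813240, plus strand) lie within Egfl7 with 16 bases between them. The 4 seeds differ from one another, and none is shared with any other of the 693 rat mature miRNAs in the RefSeq table. A miRNA on the opposite strand, miR-126b, overlaps miR-126-5p by 17 bases. The assays carry mouse names without an arm for miR-143 and miR-145, and the 3p and 5p arms shown are the ones usually meant by these names.

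Abundance was read as the threshold cycle (Ct), a log2 scale on which 1 cycle less means more template, with undetermined wells given as 40. The U6-scaled Ct is the Ct minus the mean of the 4 U6 wells of the sample, and the median-centred Ct is the Ct minus the sample's median over the 176 miRNAs determined in all sorted samples. Differences between groups are given as log2 differences, positive where the first group had more. Between 234 and 260 miRNAs were determined in stellate samples, 203 to 241 in non-stellate samples and 292 or 302 in tissue. The neuronal miRNAs miR-124, miR-128a, miR-129-3p, miR-138 and miR-9 were determined in all samples, while the oligodendrocyte miRNAs miR-219 and miR-338-3p were undetermined in 8 and 7 of the 10 sorted samples. MiR-219 was determined in non-stellate 1 and 3 and miR-338-3p in stellate 1, 2 and 5. In the 10 sorted samples 39 of the 40 wells of the 4 assays gave a Ct. In such bulk samples, fewer cells of a type and less RNA per cell cannot be told apart.

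MiR-143 was the member with the largest difference between stellate and non-stellate cells. Its U6-scaled Ct was 13.8, 12.01, 11.5, 11.3 and 13.7 in stellate 1 to 5. In non-stellate 1 to 5 it was 14.1, 13.9, 15.1, 12.9 and 19.8, and the last value is an undetermined well at 40. In tissue it was 7.39 and 7.83. Each stellate sample was below the non-stellate sample of the same number, the ranges of the sorted groups overlapped, and tissue lay below every sorted sample.

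MiR-145, made from the same transcript, had U6-scaled Ct values of 8.39, 9.12, 9.75, 6.67 and 11.1 in stellate 1 to 5. In non-stellate 1 to 5 it had 8.62, 10.1, 11.6, 9.87 and 10.3, and in tissue 4.31 and 4.86. Stellate 4 held the lowest sorted value and the sorted groups overlapped throughout most of their range.

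MiR-126-3p, the arm best known from endothelial cells, had U6-scaled Ct values of 7.66, 9.31, 10.2, 7.53 and 11.9 in stellate 1 to 5. In non-stellate 1 to 5 it had 9.76, 10.9, 13.0, 10.4 and 11.2, and in tissue 4.02 and 4.54. Stellate 1 and stellate 4 were the lowest of the sorted samples and stellate 5 was above 4 of the 5 non-stellate samples. MiR-126-5p, the other arm, had U6-scaled Ct values of 14.5, 13.995, 13.9, 11.3 and 14.5 in stellate 1 to 5. In non-stellate 1 to 5 it had 16.5, 14.6, 15.6, 12.6 and 12.9, and in tissue 7.0 and 7.50. Only stellate 4 stood apart in the stellate group, and stellate 1, among the lowest for the 3p arm, was among the highest for the 5p arm.

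**Figure D1:**
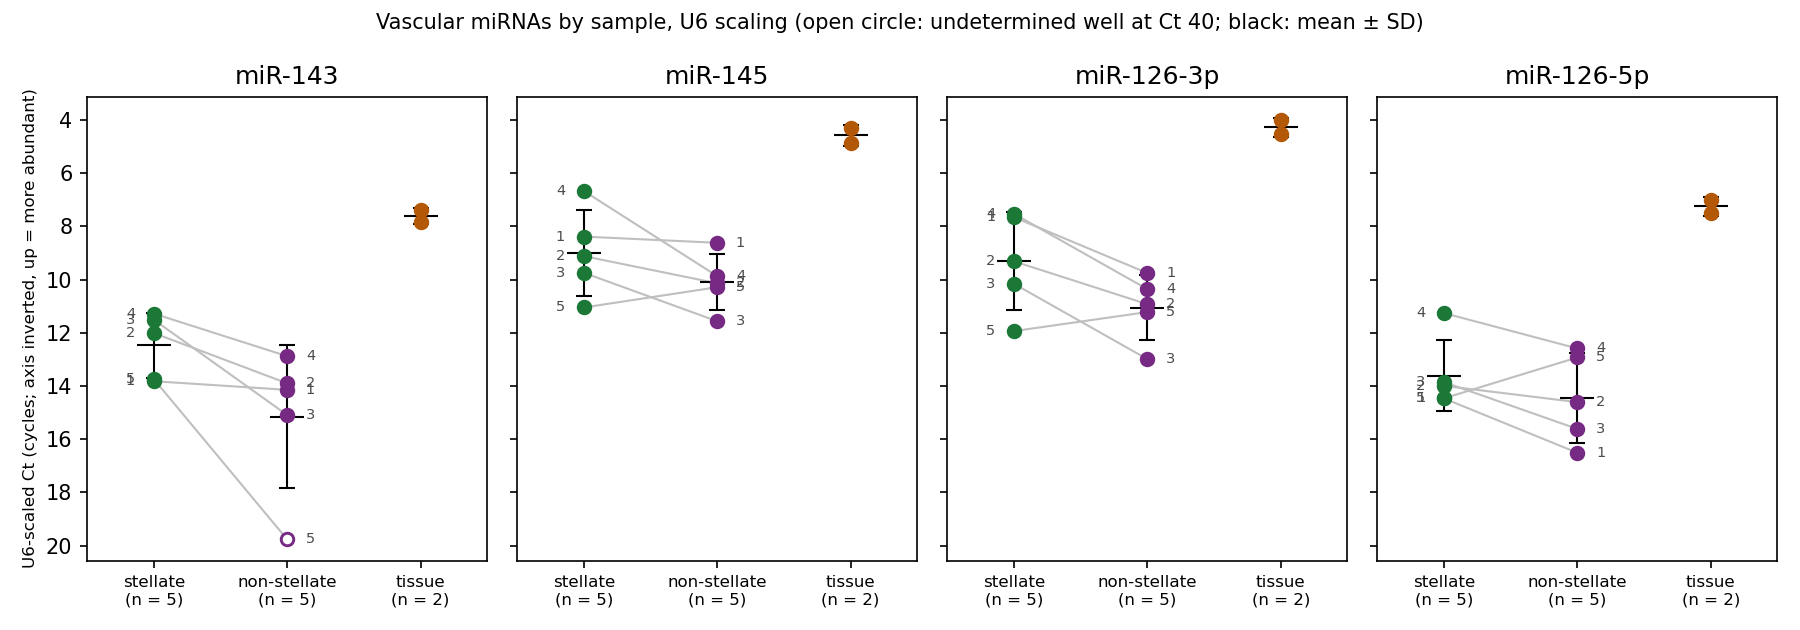
U6-scaled Ct (cycles, axis inverted so that higher means more abundant) of miR-143, miR-145, miR-126-3p and miR-126-5p in the 5 stellate, 5 non-stellate and 2 tissue samples. Points are samples with their replicate number, grey lines join samples of the same number, black marks are the mean ± SD, and the open circle is the undetermined miR-143 well of non-stellate 5 at 19.8. Tissue lies above all sorted samples in each panel, while the sorted groups overlap.

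For all 4 members the order of the means was tissue, stellate, non-stellate from most to least abundant. Mean U6-scaled Ct of miR-143 was 12.5 ± 1.22 in stellate samples (SD, n = 5), 15.2 ± 2.69 in non-stellate samples (SD, n = 5) and 7.61 ± 0.31 in tissue (SD, n = 2). For miR-145 it was 8.99 ± 1.63, 10.1 ± 1.05 and 4.59 ± 0.40, for miR-126-3p 9.32 ± 1.84, 11.1 ± 1.22 and 4.28 ± 0.37, and for miR-126-5p 13.6 ± 1.34, 14.5 ± 1.69 and 7.25 ± 0.36 (same groups and n). On this scale both tissue samples lay outside the range of the sorted samples for each member, and the ranges of the sorted groups overlapped. The tests are given with each comparison, and the calls of miR-143 and miR-145 in tissue depended on the scaling.

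Between stellate and non-stellate cells 0 of the 4 members passed a limma adjusted p of 0.05, as did 0 of all 222 tested miRNAs (0%), of which 16 had an unadjusted p under 0.05. MiR-143 was higher in stellate cells by 2.69 ± 1.16 on the log2 scale (SE, 95% interval 0.15 to 5.22), a 6.43-fold difference, with a limma p of 0.0398 and an adjusted p of 0.587. MiR-126-3p was higher by 1.73 ± 0.90 (SE, limma adjusted p = 0.587). MiR-145 was higher by 1.10 ± 0.82 (SE, limma adjusted p = 0.710) and miR-126-5p by 0.84 ± 0.89 (SE, limma adjusted p = 0.777). The median over the 4 was 1.42, beside a median of 0.46 over all tested miRNAs. With median centring the 4 differences were 2.29, 1.34, 0.71 and 0.45 in the same order, the median of all tested miRNAs was 0.07, and again 0 of 222 passed (0%), with 28 at an unadjusted limma p under 0.05.

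The difference in miR-143 rests in part on the undetermined well of non-stellate 5. With undetermined wells treated as missing, it was 1.53 ± 0.71 (SE, limma adjusted p = 0.580), and with median centring as well it was 1.04 ± 0.41 (SE, limma adjusted p = 0.268). Tested as a single U6-scaled value with the undetermined well at 40, miR-143 had an unadjusted exact two-sided permutation p of 0.0397 (252 splits), where 0.00794 is the smallest possible. The same test gave 0.0159 with median centring and 0.00794 with global mean scaling, with the undetermined well still at 40. With the samples paired by number the call was lost under U6 scaling and median centring alike, at an exact sign-flip permutation p of 0.0625, the smallest that 5 pairs allow. With U6 scaling, leaving out 1 replicate number at a time gave exact permutation p-values from 0.0286 to 0.143. Without replicate 5 the difference was 1.85 (exact permutation p = 0.0571). With median centring the p-values ranged from 0.0286 to 0.0571, and without replicate 5 the difference was 1.17 (exact permutation p = 0.0571). In pairs 1 to 4, where both wells were determined, stellate cells were higher by 0.54 to 1.74 cycles after median centring, and by 1.17 on average. MiR-143 was picked out by the study on these same samples, so these values are no independent evidence of its direction. The study's other evidence, not examined here, was higher miR-143 in layer II on microarrays and in situ hybridization at P23. Its RNA sequencing also had the miR-143 precursor higher in layer II. On the microarrays the study gave miR-145 a pattern like that of miR-143, and miR-126 as higher in layer II. The in situ signal was described as dense in stellate neurons but not limited to them, with some staining in vessels. On U6-scaled values the exact permutation test without pairing gave p = 0.127 for miR-126-3p, 0.238 for miR-145 and 0.405 for miR-126-5p. In this way 4 members were tested, without adjustment.

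Without non-stellate 3 and 5, the samples with conflicting labels, the U6-scaled differences were 1.17 ± 0.76 for miR-143, 1.03 ± 1.01 for miR-126-3p, 0.55 ± 0.94 for miR-145 and 0.96 ± 1.04 for miR-126-5p (SE). All had a limma adjusted p of 0.980. Non-stellate 5, 1 of the samples left out here, holds the undetermined miR-143 well.

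**Figure D2:**
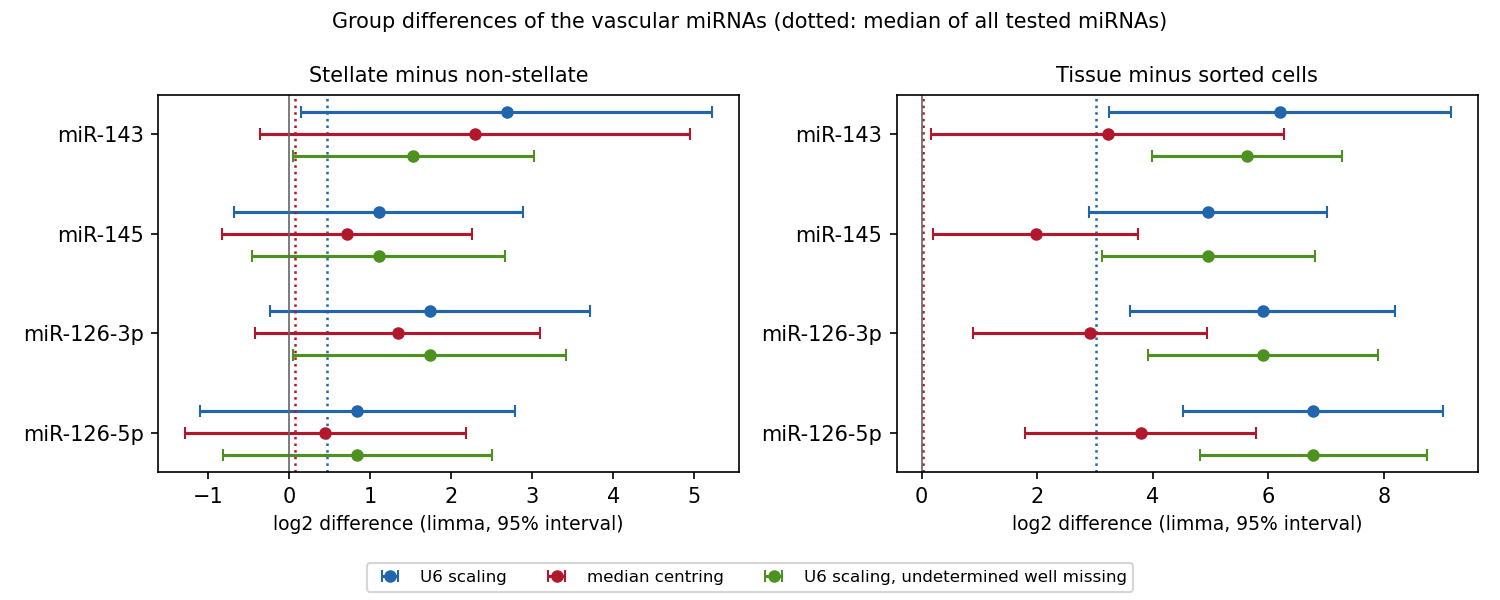
Log2 differences of the 4 miRNAs from limma with 95% intervals, stellate minus non-stellate cells on the left and tissue minus sorted cells on the right, for U6 scaling, median centring and U6 scaling with the undetermined well missing. Dotted lines are the medians of all tested miRNAs under the scaling of the same colour, 0.46 and 0.07 on the left and 3.02 and 0.03 on the right. Most intervals on the left reach 0 and all on the right lie above it.

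The values of miR-145 and miR-126-3p were uneven within the stellate group in the same way. MiR-145 had a median-centred Ct of -2.96 in stellate 1 and -3.71 in stellate 4, against -0.78, -0.74 and -0.41 in stellate 2, 3 and 5. In non-stellate 1 to 5 it was -2.17, -1.11, -0.76, -0.59 and -0.42, and in tissue -3.44 and -3.23. MiR-126-3p had a median-centred Ct of -3.69 in stellate 1 and -2.85 in stellate 4, against -0.58, -0.32 and 0.48 in stellate 2, 3 and 5. In non-stellate 1 to 5 it was -1.04, -0.32, 0.66, -0.10 and 0.51, and in tissue -3.72 and -3.56. Stellate 1 and 4 thus held more of both miRNAs than any other sorted sample and lay at about the level of P23 tissue, with stellate 4 past both tissue samples for miR-145 and stellate 1 past tissue 2 for miR-126-3p.

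MiR-143 and miR-126-5p did not share this pattern. Median-centred Ct of miR-143 was 2.47, 2.12, 1.02, 0.90 and 2.28 in stellate 1 to 5 and 3.35, 2.65, 2.76 and 2.42 in non-stellate 1 to 4. Stellate 3 and 4 held the most miR-143, and stellate 1 the least of the stellate samples. Median-centred Ct of miR-126-5p was 3.12, 4.1005, 3.37, 0.88 and 3.00 in stellate 1 to 5 and 5.72, 3.36, 3.29, 2.13 and 2.22 in non-stellate 1 to 5. Stellate 4 alone was among the most abundant sorted samples for all 4 members.

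**Figure D3:**
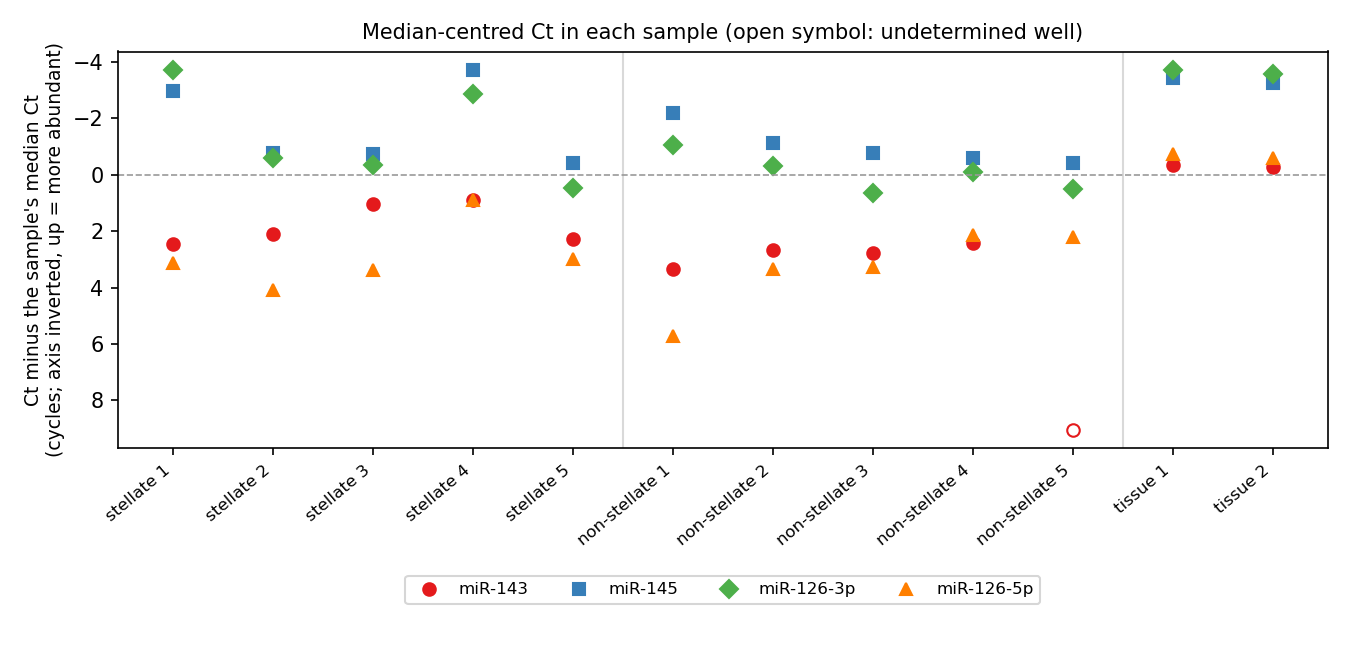
Median-centred Ct (cycles, axis inverted so that higher means more abundant) of the 4 miRNAs in each of the 12 samples, with grey lines between the groups and the undetermined miR-143 well of non-stellate 5 as an open symbol at 9.06. MiR-145 and miR-126-3p stand high together in stellate 1 and 4, at -2.96 and -3.69 and at -3.71 and -2.85, close to their level in tissue.

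The differences between stellate and non-stellate cells are also given without stellate 1 and 4. These samples were picked for their high miR-145 and miR-126-3p, so leaving them out had to lower the differences of both, and the values are a description with no test. The U6-scaled difference was then 0.13 ± 0.78 for miR-145 and 0.58 ± 0.88 for miR-126-3p (SE), beside a median of 0.58 over all tested miRNAs. With median centring it was -0.37 ± 0.42 for miR-145 and 0.09 ± 0.46 for miR-126-3p (SE). The difference of miR-143 was 2.74 ± 1.42 with U6 scaling and 2.24 ± 1.53 with median centring, and that of miR-126-5p 0.35 ± 0.95 and -0.15 ± 0.82 (SE).

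The spread of miR-145, miR-126-3p and miR-126-5p within a group was wide for this card. After median centring, the pooled within-group SD was 1.17 cycles for miR-145, 1.35 for miR-126-3p and 1.33 for miR-126-5p, beside a median of 0.63 over the 176 miRNAs determined in all sorted samples. Among these 176, 16 had a larger SD than miR-145, 11 a larger one than miR-126-5p and 10 a larger one than miR-126-3p. For miR-145 the SD was 1.51 in stellate and 0.70 in non-stellate samples, and for miR-126-3p it was 1.78 and 0.68, while that of miR-126-5p was 1.203 and 1.45. MiR-143 is not among the 176 because of its undetermined well. With that well left out, its SD was 0.74 in stellate and 0.40 in non-stellate samples.

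Pairs of miRNAs that share a transcript were set against each other over the sorted samples, with 2 relations tested on median-centred values. MiR-143 and miR-145, neighbours within Carmn, had a Pearson r of 0.21 (exact permutation p = 0.610, adjusted 0.634) and a Spearman rho of -0.07 (exact permutation p = 0.880) over the 9 samples with both determined. Without stellate 3 and 4, the samples farthest from the median of miR-143, r was -0.44. The arms of the miR-126 hairpin had an r of 0.16 (permutation p = 0.634, adjusted 0.634) and a rho of -0.18 (permutation p = 0.632) over 10 samples, and without stellate 1 and 4 r was -0.74. With U6 scaling, which leaves in the shift that all miRNAs of a sample share, r was 0.58 for the Carmn pair (exact permutation p = 0.0988) and 0.40 for the arms (permutation p = 0.246). Neither relation passed under either scaling. Each holds an assay read in late single wells, with the lowest raw Ct in sorted samples at 29.2 for miR-143 and 29.1 for miR-126-5p.

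The assay most like miR-145 was instead miR-126-3p, from another chromosome. Over the 10 sorted samples their median-centred Ct correlated at r = 0.92 and rho = 0.81, the highest r of 209 assays compared with miR-145, and as the pair was found by ranking no test is given. The value rests partly on stellate 1 and 4, and r was 0.76 over the other 8 samples. Taken as deviations from the mean of each group, r was 0.92 with all samples and 0.84 without stellate 1 and 4, with the group means taken over the samples left. Next for miR-145 were miR-150 (r = 0.88) and miR-24 (r = 0.83), and for miR-126-3p the 3 most alike were miR-150 (r = 0.95), miR-145 and miR-449a (r = 0.89). MiR-126-5p stood at place 72 of 209 in the list of miR-126-3p and miR-143 at place 56 in that of miR-145. These correlations share the RNA samples and the card, so they describe likeness across the same 10 samples only.

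MiR-143 and miR-126-5p were alike to other assays. The closest to miR-143 were miR-494 (r = 0.88), miR-324-3p (r = 0.84) and miR-214 (r = 0.83) over 9 samples, out of 204 assays compared. The closest to miR-126-5p were miR-34c (r = 0.72), rno-miR-344-3p (r = 0.71) and miR-214 (r = 0.67) over 10 samples. MiR-214, known from mesenchymal cells of the vessel wall, was thus named for both, and between themselves miR-143 and miR-126-5p had an r of 0.66 over 9 samples.

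**Figure D4:**
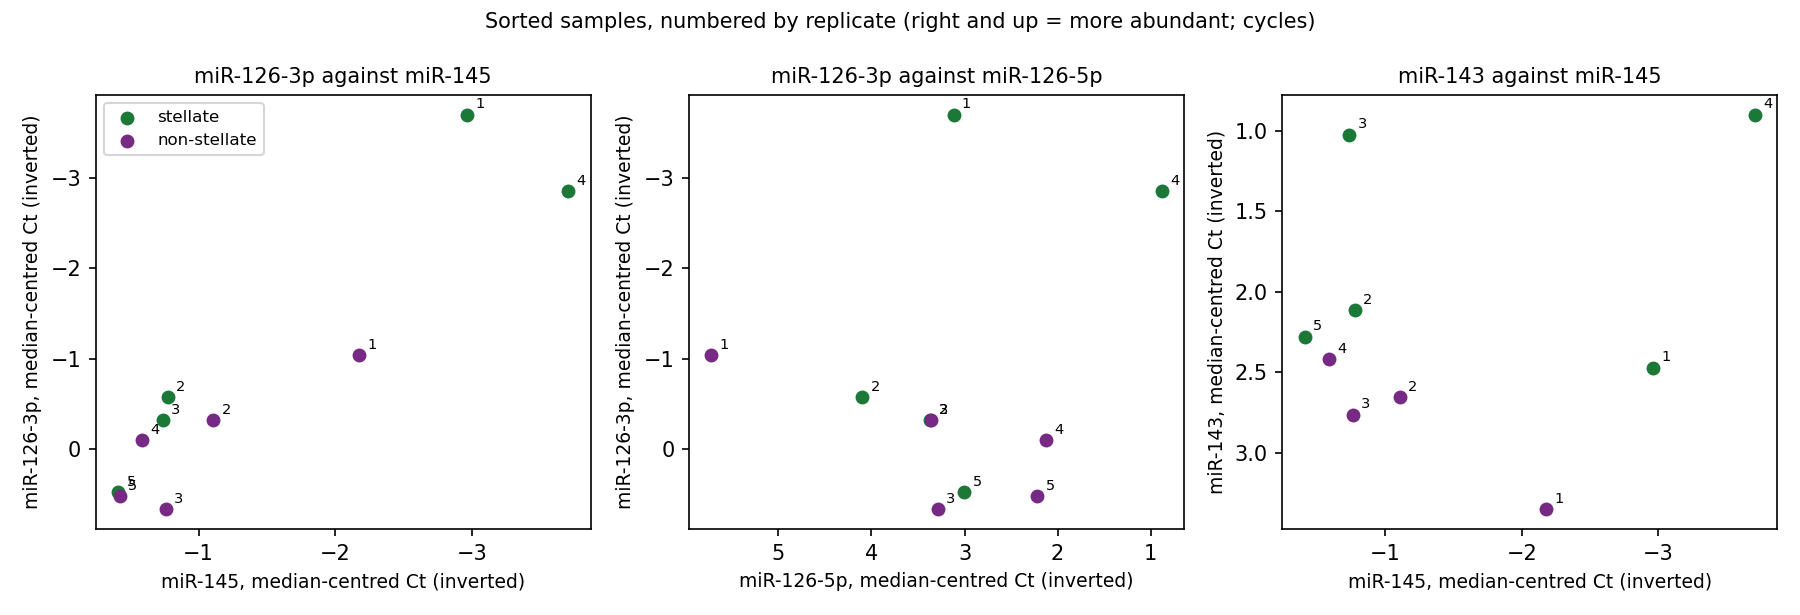
Median-centred Ct (cycles, both axes inverted so that right and up mean more abundant) in the sorted samples, with miR-126-3p against miR-145, miR-126-3p against miR-126-5p and miR-143 against miR-145. Numbers are replicates and colours the groups, and the sample with the undetermined miR-143 well is left out of the right panel. The points of the left panel lie along a line (r = 0.92), while the arms of one hairpin (r = 0.16) and the Carmn neighbours (r = 0.21) do not.

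MiRNAs of blood and microglia were read beside this pattern. MiR-150, known from lymphocytes, had a median-centred Ct of -5.087 in stellate 1 and -5.095 in stellate 4, against -2.07 to 0.24 in the other 8 sorted samples and -3.27 and -3.36 in tissue. As it ranked first in likeness to miR-126-3p, its high level in stellate 1 and 4 is no separate finding. The study reported miR-150 as up in its labelled stellate cells, and in layer II at a single age. Here it was higher in stellate cells by 2.37 ± 0.92 with U6 scaling (SE, limma adjusted p = 0.587). Of the 7 miRNAs listed for blood and microglia 6 were on the card, and their summed level, as log2 over the sample's median, was 5.32 and 5.36 in stellate 1 and 4, 2.78 to 3.38 in the other sorted samples and 3.51 to 3.57 in tissue. Without miR-150 the sum was 2.58 and 2.76 in stellate 1 and 4, within the 1.89 to 3.13 of the other sorted samples. The red cell miRNA miR-451 and miR-142-5p, a miRNA of leukocytes, were undetermined in all 10 sorted samples. MiR-142-3p (2.56 and 4.91), miR-223 (2.27 and 2.93) and miR-486 (-2.48 and -2.73) in stellate 1 and 4 lay within the range of the other sorted samples. What part cells of blood or vessel had in the levels of miR-145 and miR-126-3p was not tested.

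Differences between members within a sample do not depend on any reference RNA. The Ct of miR-126-3p minus that of miR-126-5p was -6.81, -4.68, -3.70, -3.73 and -2.53 in stellate 1 to 5 and -6.75, -3.68, -2.62, -2.23 and -1.70 in non-stellate 1 to 5, and it was -2.98 and -2.96 in tissue. The balance of the arms thus ranged over several cycles in both sorted groups and was most tilted to the 3p arm in replicate 1 of each. It was nearly the same in tissue 1 as in tissue 2. Between assays such a difference also holds their efficiencies, so only its change between samples can be read.

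For the Carmn neighbours, the Ct of miR-143 minus that of miR-145 was 5.43, 2.89, 1.76, 4.61 and 2.69 in stellate 1 to 5, 5.53, 3.76, 3.52 and 3.01 in non-stellate 1 to 4, and 3.08 and 2.96 in tissue. Of the 6 pairs of members, 0 differed between stellate and non-stellate cells after adjustment over the 6. Without pairing the smallest p belonged to miR-145 minus miR-126-3p, at -0.32 ± 0.66 in stellate and -0.95 ± 0.35 in non-stellate samples (SD, n = 5, exact permutation p = 0.0794, adjusted 0.476). With the samples paired by number its exact sign-flip permutation p was 0.188 (adjusted 0.562). The Ct of miR-126-3p minus that of miR-126-5p was lower in the stellate sample in 5 of 5 pairs (mean difference -0.89 cycles), with an exact sign-flip permutation p of 0.0625, the smallest that 5 pairs allow (adjusted 0.375). In tissue miR-145 minus miR-126-3p was 0.29 and 0.33. Between the 2 tissue samples and the sorted samples 0 of 6 pairs passed either, with a smallest adjusted exact permutation p of 0.218. This comparison was added after the data had been seen. Its smallest possible unadjusted exact permutation p was 0.0152 or 0.0182, so 1 pair alone could not pass after adjustment over the 6.

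All 4 members were more abundant in P23 tissue than in sorted cells when scaled on U6, together with most of the card. Of 222 tested miRNAs 141 passed a limma adjusted p of 0.05 (63.5%), 138 of them higher in tissue (62.2%), and the 4 members were among these. MiR-126-5p was higher in tissue by 6.78 ± 1.04 on the log2 scale (SE, limma adjusted p = 0.000143) and miR-143 by 6.20 ± 1.36 (SE, limma adjusted p = 0.0016). MiR-126-3p was higher by 5.91 ± 1.06 (SE, limma adjusted p = 0.000449) and miR-145 by 4.96 ± 0.95 (SE, limma adjusted p = 0.00073). Their median was 6.06, beside 3.02 over all tested miRNAs. Age, dissociation, sorting and extraction kit all separated tissue from the sorted cells and cannot be told apart.

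With median centring, which reads each miRNA relative to the rest of the card, the miR-126 arms passed and miR-143 and miR-145 did not. Under this scaling 109 of 222 tested miRNAs passed (49.1%), 53 of them higher in tissue (23.9%), and the median of all was 0.03. MiR-126-5p was higher in tissue by 3.79 ± 0.91 (SE, limma adjusted p = 0.00523), a 13.8-fold difference, and miR-126-3p by 2.92 ± 0.92 (SE, limma adjusted p = 0.0221), a 7.55-fold difference. MiR-143, at 3.22 ± 1.39 (SE, limma adjusted p = 0.0739), and miR-145, at 1.97 ± 0.81 (SE, limma adjusted p = 0.0605), did not pass. With the undetermined well missing as well, miR-143 was at 2.59 ± 0.45 and passed (SE, limma adjusted p = 0.000525), and miR-145 was just past the threshold (limma adjusted p = 0.0451). This setting was added once the values were known. Without stellate 1 and 4 the median-centred difference of miR-145 was 2.51 ± 0.43 and that of miR-126-3p 3.54 ± 0.47 (SE), values given with no test, since leaving out the sorted samples nearest to tissue had to widen both. Without non-stellate 3 and 5, the median-centred differences of miR-143 (2.80), miR-126-3p (2.90) and miR-126-5p (4.19) passed and that of miR-145 (2.03) did not (limma adjusted p = 0.00119, 0.0383, 0.00572 and 0.0906).

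The median-centred Ct of miR-143 was -0.35 and -0.27 in tissue, and the nearest sorted sample, stellate 4, was 1.17 cycles higher. For miR-126-5p tissue was at -0.74 and -0.60, and stellate 4 was 1.48 cycles higher. For these members tissue and sorted samples did not overlap, whereas 1 sorted sample reached tissue for miR-145 and 1 for miR-126-3p. The comparisons with tissue and between the sorted groups share the sorted samples.

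Other miRNAs known from vessels were read beside the 4 members. Among 8 tested endothelial miRNAs (of 9 listed), 0 passed in the comparison of the sorted groups on U6-scaled values, 7 had a positive difference and the median was 1.13, beside 0.46 over all tested miRNAs. The nearest to passing were miR-222, at 1.49 ± 0.56, and miR-221, at 1.68 ± 0.67 (SE, limma adjusted p = 0.587 for both), a pair made from one transcript and also found in neurons. With median centring they were at 1.10 ± 0.27 and 1.29 ± 0.31 (SE, limma adjusted p = 0.132 for both). That was the smallest adjusted p of all tested miRNAs, shared with miR-93 and miR-322. Among 4 tested miRNAs of vessel wall and mesenchyme (of 8 listed, 7 of them on the card), 0 passed and the median was 0.46 on U6-scaled values. On the same scale 4 of the 5 neuronal miRNAs had a positive difference, with a median of 0.97, and 0 passed. In tissue against sorted cells with median centring, 2 of the 8 endothelial miRNAs passed as higher, beside 23.9% of all tested miRNAs. These were miR-222 (1.33) and miR-130a (0.93), and 1 passed as lower, miR-92a (-4.09). Of the 4 vessel wall miRNAs, miR-21 (3.38) passed as higher and miR-214 (-3.85) as lower. Of the 4 striated muscle miRNAs listed 3 were on the card and 1 was tested, miR-133a, which was higher in tissue with U6 scaling and did not pass with median centring (0.89).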

How the data were processed

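MiRNAs were read on TaqMan Rodent MicroRNA card A (384 wells), from cDNA made with Megaplex primers and pre-amplified. The raw table deposited by the authors holds Ct, a log2 scale, with 40 in undetermined wells. Their deposited normalized table is likewise log2 and subtracts the mean Ct of 4 U6 wells (largest difference 7.1e-15). Their fold-change and limma tables hold their own comparisons and were not used. Single wells carry no count, and a repeat is given by U6 alone, at 0.366 cycles (pooled SD of its 4 wells). The highest determined Ct was 38.2.

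Groups came from titles. The members and lists were chosen with earlier results of these data known. MiRNAs undetermined in at most 3 of 10 sorted samples were tested with limma 3.58.1 in R 4.3.3 (lmFit, eBayes, Benjamini-Hochberg, 0.05), without a block, as no block is stated in the study's methods. Tissue was set against the mean of both sorted groups. Exact permutation and correlations used Python 3.11.15 and scipy 1.17.1 (100000 resamples at n = 10). Named miRNAs were the members, the 3 assays most alike to each and list members that passed. P-values set a difference or a correlation against the spread between these samples, which the labels call biological replicates. Those of the correlations shuffle values over all sorted samples, although these came from both groups and from the same 5 replicates. The numbers were read as pairs because labelled and unlabelled cells came from the same 5 replicates. Deviations from group means correlated within pairs 1 to 5 at 0.331, 0.119, 0.256, 0.155 and 0.0743, against -0.0481 on average for other numbers.

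On simulated data (222 assays, 40 changed, 20 data sets) 39.8% of changes of 2 log2 units and 84% of changes of 4 were recovered between the sorted groups, with 3.13% false among calls, and 21.2% and 79.2% for tissue (4.96% false). The simulated noise was independent between assays, with no shift shared by a sample, no pairs and no undetermined wells. Changes had random directions, and tissue was given the spread of the sorted cells. These rates therefore need not hold for the data. Alternatives changed scaling, undetermined wells, filter, moderation, block and samples. Sequences and coordinates came from RefSeq tables of GRCr8. The listed miR-199b, miR-144 and miR-206 had no assay of that name on the card.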

Additional observations from a re-analysis of the deposited data

Results flagged for a closer look

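Of 28 groups of values examined for a sample far from the others, 2 held one, where 1.4 would by chance at 1 in 20. In stellate 4 the U6-scaled Ct of miR-126-5p was 11.3, below the 13.9 to 14.5 of stellate 1, 2, 3 and 5. In non-stellate 5 the median-centred Ct of miR-143 was 9.06, above the 2.42 to 3.35 of non-stellate 1 to 4, and this value is an undetermined well at 40 and not a measured level.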

How the results depend on the processing

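Between stellate and non-stellate cells, 0 of 4 members passed under each of 34 alternatives. MiR-143 and miR-126-3p stayed higher in stellate cells (1.01 to 3.47 and 0.09 to 2.52), while miR-145 and miR-126-5p turned to -0.37 and -0.15 with median centring without stellate 1 and 4, added after seeing the data. The replicate block left the differences at 2.69, 1.10, 1.73 and 0.84 for miR-143, miR-145, miR-126-3p and miR-126-5p (limma adjusted p from 0.393 to 0.717). It changed no call of limma. With the block and median centring 0 of 222 miRNAs passed, with 48 at an unadjusted limma p under 0.05. The smallest limma adjusted p was then 0.0692. As a sign-flip of the 5 pairs, the exact test of miR-143 could not reach 0.05 (2.69, exact permutation p = 0.0625, the smallest possible). With U6 scaling and no pairing, the exact test of miR-143 lost its call without replicates 1, 2, 3 or 5. The differences were 1.85 to 3.28 over all replicates left out. The call stayed with median centring (2.29, exact permutation p = 0.0159) and global mean scaling (2.35, exact permutation p = 0.00794), without pairing.

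In tissue against sorted cells 2, 2 and 1 members passed with median centring, quantile normalization and Y1 scaling. MiR-143 did not pass with global mean scaling (3.53), median centring (3.22, and 3.24 without stellate 1 and 4), Y1 (2.70) or quantile normalization (3.57). MiR-145 did not pass with median centring (1.97, and 2.03 without non-stellate 3 and 5), Y1 (1.46) or quantile normalization (2.06), nor miR-126-3p with Y1 (2.40). MiR-126-5p passed under all 31 alternatives (3.27 to 7.53).

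Within samples, with 1 replicate left out, stellate minus non-stellate ranged from -0.15 to 0.49 for miR-143 minus miR-126-3p (-0.95 with wells at 40), from -0.95 to 0.0932 for miR-143 minus miR-126-5p and from -0.78 to 0.14 for miR-145 minus miR-126-5p. The causes were not tested. Single late wells limit miR-143 and miR-126-5p in sorted cells.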
